A study of Mus musculus with 7 samples.

Results

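Cytosolic ribosomal protein genes encode the proteins of the ribosome that translates messages made in the nucleus. They were taken as the protein-coding rows of the deposited table named Rpsa, Rplp0, Rplp1 or Rplp2, or named Rpl or Rps followed by a digit, without the S6 kinase genes (Rps6k) and Rps19bp1. The rule found 93 of 54532 genes, among 22046 protein-coding ones. Of these, 77 are the main genes of the ribosome, 46 of the large subunit (Rpl) and 31 of the small subunit (Rps). A further 7 are paralogues, relatives of a main gene at another locus, and 9 carry a symbol that names them as a copy of a main gene. Fau and Rack1, which encode other proteins of the small subunit, have symbols outside the rule and are given separately.

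The libraries were made from spleen cells sorted as Tfh cells, that is, follicular helper T cells, which drive B cell selection and antibody class switching. All mice had been sensitised to ovalbumin (OVA) by intraperitoneal injection, with no other treatment stated. The design had 3 WT libraries and 4 with the genotype Mst1 knockout (written Mst1∆CD4 in the titles), each called a biological replicate. The knockout allele, the driver of the deletion, age and pooling are not given in the sources used here, and p-values measure the spread between these libraries.

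Library totals ran from 16789158 to 18375275 counts. MST1 is the product of Stk4, which stood at 316 to 337 CPM (counts scaled to library size) in the WT libraries and 286 to 302 CPM in the knockout libraries. The difference of -0.16 on the log2 scale (SE 0.08) did not pass (edgeR adjusted p = 0.226). Summed markers of T cells stood at 803 to 1165 CPM in the WT libraries and 268 to 492 CPM in the knockout libraries, and 12 of 13 were called lower, Cd4 and Cd3e among them. Summed B cell markers stood at 4591 to 6069 CPM against 1577 to 3708 CPM, with 4 of 10 called lower. Summed neutrophil markers stood at 14627 to 18099 CPM against 9546 to 14016 CPM, with 4 of 10 called lower (Ngp, S100a8, S100a9 and Ltf), 1 called higher (Mmp8) and 5 not passing. Summed monocyte markers stood at 4727 to 8237 CPM against 6955 to 11646 CPM, with 2 of 8 called higher (Ccr2 and Ly6c2), and summed platelet markers at 19.6 to 23.7 CPM against 31.9 to 43.4 CPM, with 2 of 7 called higher. Markers of red cell precursors were called higher in 13 of 14 cases, with sums of 189 to 239 CPM against 868 to 2025 CPM. None of these markers was at 0 in all libraries. RNA of cell types other than the labelled one was thus present in amounts that moved with the labels, and its part in the ribosomal protein levels was not tested. In such bulk samples, fewer cells of a type and less RNA per cell cannot be told apart.

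Each ribosome carries a single copy of nearly every ribosomal protein, and the genes are transcribed at high and closely matched levels in growing cells, lymphocytes included. The large subunit forms peptide bonds, and the small subunit reads the message. Reverse transcription of these abundant messages has left the mouse genome with many processed pseudogenes, intron-less copies that can be almost identical to the parent message. Reads from parent and copy can then be hard to tell apart, so the rows of both are described below.

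A gene was called when its adjusted p was under 0.05 in the comparison of knockout with WT libraries. Of the 93 members, 88 passed the filter on low counts. In that comparison 4 of the 88 were called, all lower in the knockout libraries. Over all 15795 genes tested, 15.5% were called (6.83% lower and 8.71% higher), against 4.55% of the members; the difference of these shares was not tested. The other 84 did not pass. At an unadjusted p under 0.05 there were 6, none of them higher, the added ones being Rpl3 and Rps15a. The same 4 were the members in which every knockout library lay below every WT library, and no member had the opposite arrangement. Over all genes, 14.7% had every knockout library below every WT library and 15.4% had every one above.

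**Figure D1:**
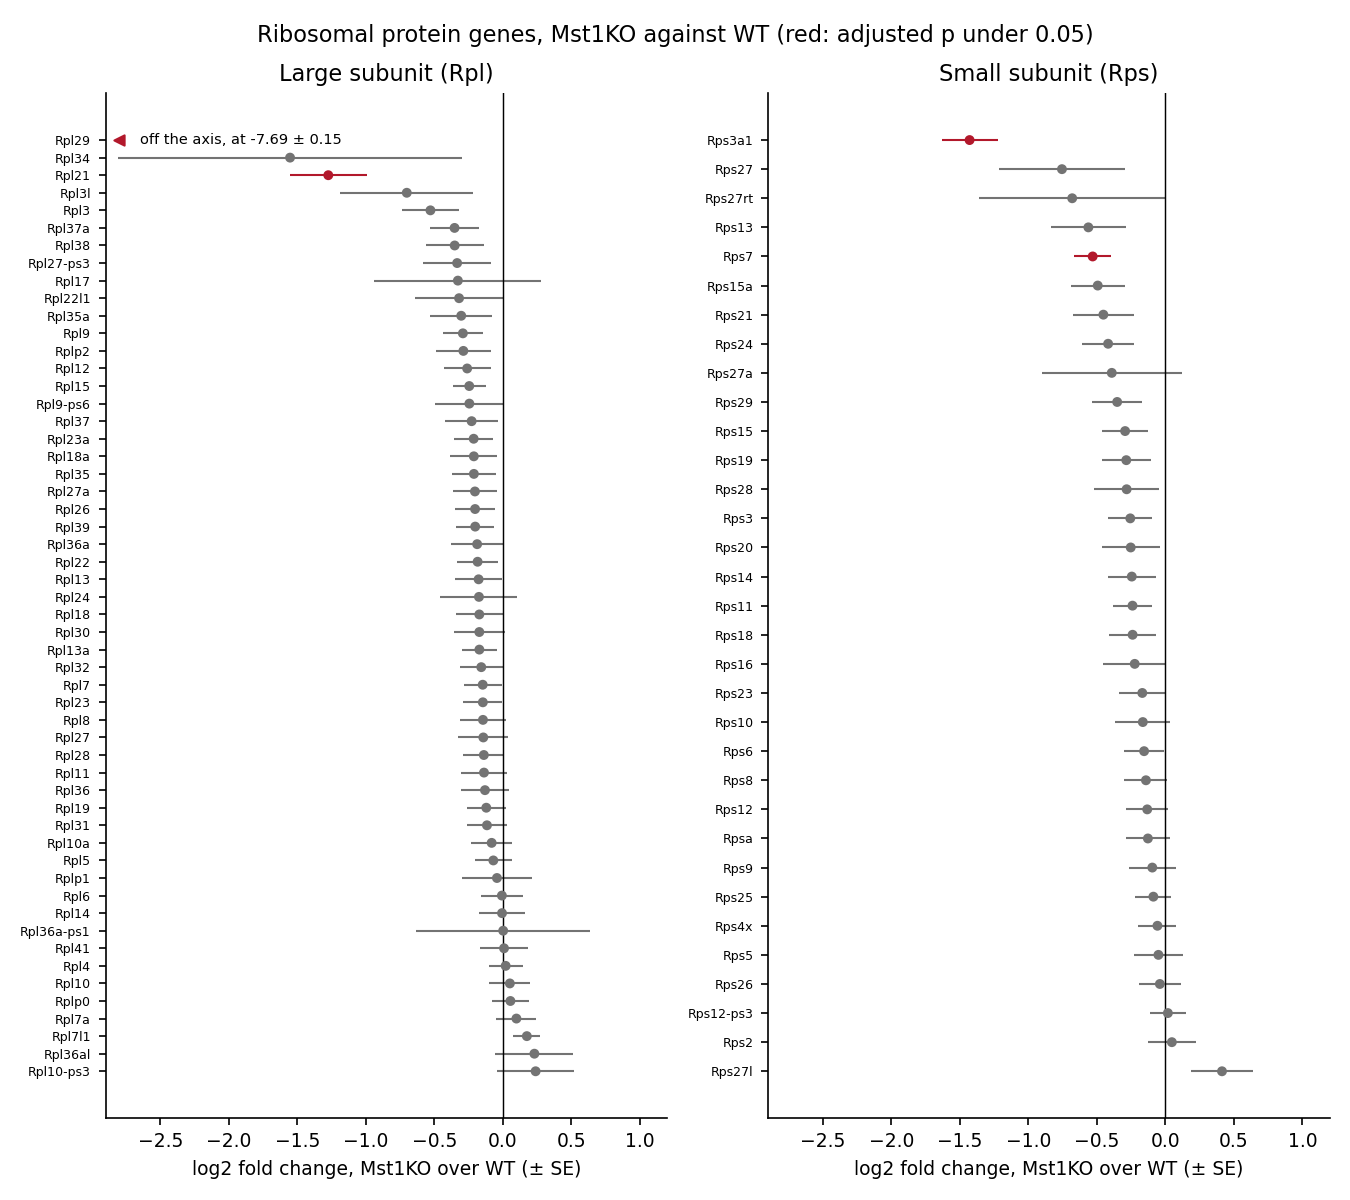
Log2 fold change of the tested members, knockout over WT, without 1 that is not reported here, with its standard error (edgeR), for large subunit genes on the left and small subunit genes on the right. The 4 called genes are red; Rpl29 lies off the axis at -7.69, and most of the other points sit a little to the left of 0.

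Most fold changes of the members were below 0. Of the 88 tested, 76 were below 0 and 12 above, with a median of -0.18 on the log2 scale and quartiles of -0.29 and -0.11. The median over all genes tested was -0.0019, with 50.3% below 0. In the large subunit 41 of 46 main genes were below 0, with a median of -0.17, and in the small subunit 30 of 31 were, with a median of -0.24. This shift was about the size of the median standard error of a single member, 0.17, and it depended on single libraries. Without WT replicate 2 the median was -0.06, and without knockout replicate 1 it was -0.30. The highest fold change of any member was 0.41, for the paralogue Rps27l.

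Rpl29, a large subunit protein also described as a heparin-binding protein, set the groups apart by far the most. The gene (ENSMUSG00000048758) spans 106429454 to 106431568 on chromosome 9 in the deposited coordinates. It had 5747, 6493 and 6808 counts in WT replicates 1 to 3, and 24, 32, 40 and 31 counts in knockout replicates 1 to 4. The groups were far apart, and the 4 knockout libraries differed little among themselves. Scaled to the library, this was 371 ± 18 CPM (SD, n = 3) against 1.79 ± 0.332 CPM (SD, n = 4). The fold change was -7.69 on the log2 scale (SE 0.15, edgeR adjusted p = 2.07e-08), about 207-fold. It stayed between -7.81 and -7.59 in every alternative that kept the deposited rows.

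Counts on sequences that match Rpl29 did not fall with it. Its near-identical copies together had 866, 1082 and 680 counts in the WT libraries and 1276, 1230, 1420 and 1467 counts in the knockout libraries. The copies were thus higher in each knockout library than in any WT library. Among them Gm13841, a processed pseudogene on chromosome 5 with 99.4% identity, rose from 430, 632 and 343 counts to 932, 916, 1036 and 1098 counts. Its fold change was 1.04 (SE 0.19, edgeR adjusted p = 0.01). Gm8210 on chromosome 1 rose from 16, 35 and 9 counts to 217, 158, 199 and 219 counts, a fold change of 3.25 (SE 0.40, edgeR adjusted p = 0.00174). Gm10709, at 7751725 to 7752204 on chromosome 9, went the other way, with 251, 223 and 124 counts against 0, 2, 0 and 2 counts (edgeR adjusted p = 0.000303). This copy shares its chromosome with Rpl29 but lies far from that gene. In the WT libraries the copies held 9.08% to 14.3% of the summed counts, and in the knockout libraries 97.3% to 98.2%. With the copies added to Rpl29 the sum was still lower in the knockout libraries, at 78.1 ± 5.99 CPM (n = 4) against 422 ± 18.6 CPM (n = 3). That fold change was -2.44 (SE 0.09, edgeR adjusted p = 1.16e-05).

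**Figure D2:**
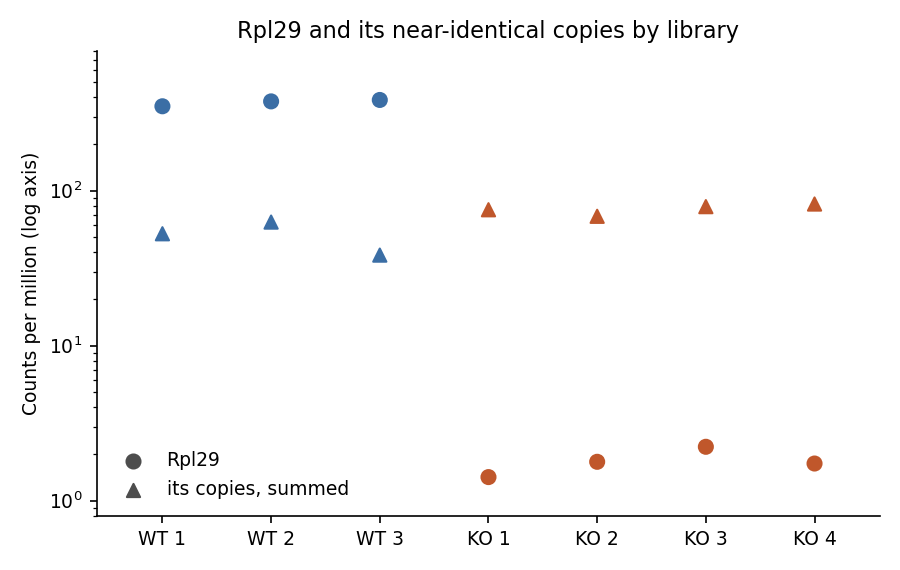
CPM of Rpl29 (circles) and of its summed near-identical copies (triangles) in each library, on a log axis, with WT in blue and knockout in orange. Rpl29 falls from over 350 CPM to under 2.3 CPM, and the copies are higher in every knockout library than in any WT library.

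Around Rpl29, 26 other tested genes began within 1 Mb on either side. Of these 6 were called lower and 1 higher, with a median of -0.13. Over all genes tested 6.83% were called lower and 8.71% higher, and the difference from these neighbours was not tested. The 1 that rose was Col6a4, a collagen VI chain gene 0.44 Mb away, at a fold change of 9.53 on the log2 scale, from at most 1 count in any WT library. Mst1, a gene for a secreted growth factor that shares its symbol with the kinase's protein name, lies 1.65 Mb away and fell by 2.75 on the log2 scale (edgeR adjusted p = 0.000844). The other 8 members on chromosome 9 did not pass. The nearest of them, Rps27rt at 8.55 Mb, had a fold change of -0.68 (edgeR adjusted p = 0.547), and Rpsa at 13.7 Mb had -0.13.

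Copies of the members were sought by sequence alone, aligning the annotated transcripts of 91 members to those of all genes outside the members. Each copy was assigned to the member it matched best. At 90% identity or more, 82 of the members were assigned at least 1 copy, and there were 1043 copies, 997 of them processed pseudogenes. No count fell on 419 of them, while 71 had at least 1000 counts over the 7 libraries. Of 194 copies tested, 12 were called higher and 4 lower, 8.25% against the 15.5% of all genes.

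Rps3a1, a small subunit protein gene on chromosome 3, was called lower while its copies were higher. It had 22945, 35001 and 25213 counts in the WT libraries and 7904, 14459, 10126 and 10191 counts in the knockout libraries. Every knockout library was below every WT library, and the fold change was -1.43 (SE 0.20, edgeR adjusted p = 0.00333). Rps3a2, a processed pseudogene on chromosome 14, had 95, 119 and 88 counts in the WT libraries and 12494, 5154, 7296 and 5219 counts in the knockout libraries. Its fold change was 6.19 (SE 0.46, edgeR adjusted p = 0.000526). Rps3a3 on chromosome 13 had 52, 95 and 66 counts against 7862, 223, 3134 and 3141 counts, and Gm7600 on chromosome 8 had 23, 34 and 14 counts against 97, 880, 193 and 186 counts. Both were called higher. Together the copies held 0.842% to 0.92% of the summed counts in the WT libraries and 30.6% to 72.2% in the knockout libraries. The sum of Rps3a1 and its copies was 1634 ± 364 CPM in WT (n = 3) and 1262 ± 283 CPM in knockout (n = 4). The groups of sums overlapped, and the fold change of -0.37 (SE 0.20) did not pass (edgeR adjusted p = 0.237).

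Over 792 aligned bases Rps3a1 and Rps3a2 differ at 4, all in the coding sequence: T216C, T534C, A645T and T668C. In these tokens the member's base comes first, then the position counted from 1 at the first base of the member's start codon, then the copy's base. The window around the first is printed to show how little separates parent and copy, from GENCODE M21 transcripts on the minus strand of GRCm38, with the differing base in capitals. The same base differs in Rps3a3.
Rps3a1, chr3:86141362-86141392: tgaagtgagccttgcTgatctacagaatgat
Rps3a2, chr14:88123578-88123608: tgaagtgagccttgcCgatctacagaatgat

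Rpl34, a large subunit protein gene also on chromosome 3, had the widest range within a group of any tested member, in the knockout libraries. It had 9110, 11693 and 8011 counts in the WT libraries, and 8908, 266, 231 and 3803 counts in the knockout libraries. Knockout replicate 1 was within the WT range, replicates 2 and 3 were almost without counts, and replicate 4 lay between. Because of this spread the fold change of -1.55 had a standard error of 1.26 and did not pass (edgeR adjusted p = 0.455), while limma-voom with quality weights gave -4.04 (adjusted p = 0.0265). Rpl34-ps1, a processed pseudogene on chromosome 6, had 359, 762 and 432 counts in the WT libraries and 1147, 6702, 6368 and 2859 counts in the knockout libraries. Rpl34-ps1 was high in the libraries where Rpl34 was low. Gm10154, a processed pseudogene on chromosome 4, had 864, 322 and 225 counts against 252, 22, 20 and 358 counts. This copy was thus lowest in the libraries where Rpl34 was lowest. Copies held 7.8% to 12% of the sum in WT, and 13.9%, 96.2%, 96.5% and 45.9% in knockout replicates 1 to 4. The sum was 622 ± 127 CPM in WT (n = 3) and 441 ± 114 CPM in knockout (n = 4). At -0.50 (SE 0.21) it did not pass either (edgeR adjusted p = 0.134). Across the 7 libraries Rpl34 alone had a 52.8-fold range and the sum a 2.02-fold range.

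Rpl34 and Rpl34-ps1 differ at 2 of 354 aligned bases, T132C and C318G, shown on the minus strand for Rpl34 and the plus strand for its copy.
Rpl34, chr3:130729069-130729099: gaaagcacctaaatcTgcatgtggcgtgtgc
Rpl34-ps1, chr6:71124726-71124756: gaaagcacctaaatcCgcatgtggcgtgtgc
Rpl34, chr3:130726896-130726926: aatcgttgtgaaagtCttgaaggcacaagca
Rpl34-ps1, chr6:71124912-71124942: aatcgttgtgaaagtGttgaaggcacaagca

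Rpl3, which encodes a protein near the peptidyl transferase centre of the large subunit, had 17293, 22451 and 19360 counts in WT and 19555, 12264, 12603 and 11650 counts in knockout. Replicate 1 of the knockout lay within the WT range and the others below it, at a fold change of -0.53 (SE 0.21, edgeR adjusted p = 0.116). Rpl3-ps1 on the X chromosome rose from 1025, 1852 and 1276 counts to 5049, 6884, 6731 and 5266 counts, at 2.07 (SE 0.20, edgeR adjusted p = 0.00081). The sum with all copies differed by -0.11 (SE 0.16, edgeR adjusted p = 0.688). Parent and copy differ at 2 of 1210 aligned bases, C57A and T786C. The second is shown, on the minus strand for Rpl3 and the plus strand for its copy.
Rpl3, chr15:80079738-80079768: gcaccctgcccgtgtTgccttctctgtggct
Rpl3-ps1, chrX:13203342-13203372: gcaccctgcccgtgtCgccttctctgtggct

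Rps7, a small subunit protein gene on chromosome 12 that is also linked to Diamond-Blackfan anaemia in humans, had 14260, 17673 and 16027 counts in WT. In knockout it had 11438, 9675, 13644 and 10944 counts, each below every WT value. The fold change of -0.53 (SE 0.14) passed narrowly (edgeR adjusted p = 0.0308). It was lost with adjusted p-values of 0.0627, 0.114 and 0.079 without WT replicates 1, 2 and 3, and 0.0812 and 0.0547 without knockout replicates 2 and 4. Gm6472, a transcribed processed pseudogene on the X chromosome, had 2914, 3308 and 2252 counts against 6728, 5346, 1952 and 4532 counts. It was higher than in WT in knockout replicates 1, 2 and 4 and lower in replicate 3, and it did not pass (edgeR adjusted p = 0.303). The sum of Rps7 and its copies differed by -0.26 (SE 0.13, edgeR adjusted p = 0.186). Rps7 and Gm6472 differ at 4 of 651 aligned bases, 3 of them coding. The first of these, T26G, is shown on the minus strand of both.
Rps7, chr12:28635614-28635644: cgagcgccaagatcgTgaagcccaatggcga
Gm6472, chrX:152910080-152910110: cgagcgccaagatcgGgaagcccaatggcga

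Rpl21, a large subunit protein gene on chromosome 5, had 3341, 4096 and 3553 counts in WT and 1706, 1128, 1048 and 2363 counts in knockout. All knockout libraries lay below all WT libraries, with the lowest values in replicates 2 and 3, and the fold change was -1.27 (SE 0.28, edgeR adjusted p = 0.0226). Without WT replicates 1, 2 and 3 the adjusted p was 0.0596, 0.077 and 0.0664. Its copies had 2650, 4468 and 3045 counts against 3783, 2677, 2928 and 2239 counts, so those groups overlapped. In contrast to Rps3a1 and Rps7, Rpl21 kept its call with the copies added. The sum was 412 ± 74.6 CPM in WT (n = 3) and 254 ± 51.3 CPM in knockout (n = 4), a fold change of -0.70 (SE 0.17, edgeR adjusted p = 0.0265).

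Rps27 and Rps27rt encode the same small subunit protein, and their transcripts have 0 differences over 341 aligned bases. Rps27 on chromosome 3 had 10172, 14084 and 5199 counts in WT and 9346, 6217, 5496 and 2935 counts in knockout. Rps27rt on chromosome 9 had 2370, 1965 and 5949 counts against 1228, 982, 1601 and 4980 counts. WT replicate 3 and knockout replicate 4 were thus low in Rps27 and high in Rps27rt. Neither passed alone (edgeR adjusted p = 0.317 and 0.547). Their sum was 777 ± 152 CPM in WT (n = 3) and 467 ± 109 CPM in knockout (n = 4), without overlap. It was called lower, at -0.74 (SE 0.19, edgeR adjusted p = 0.0327).

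**Figure D3:**
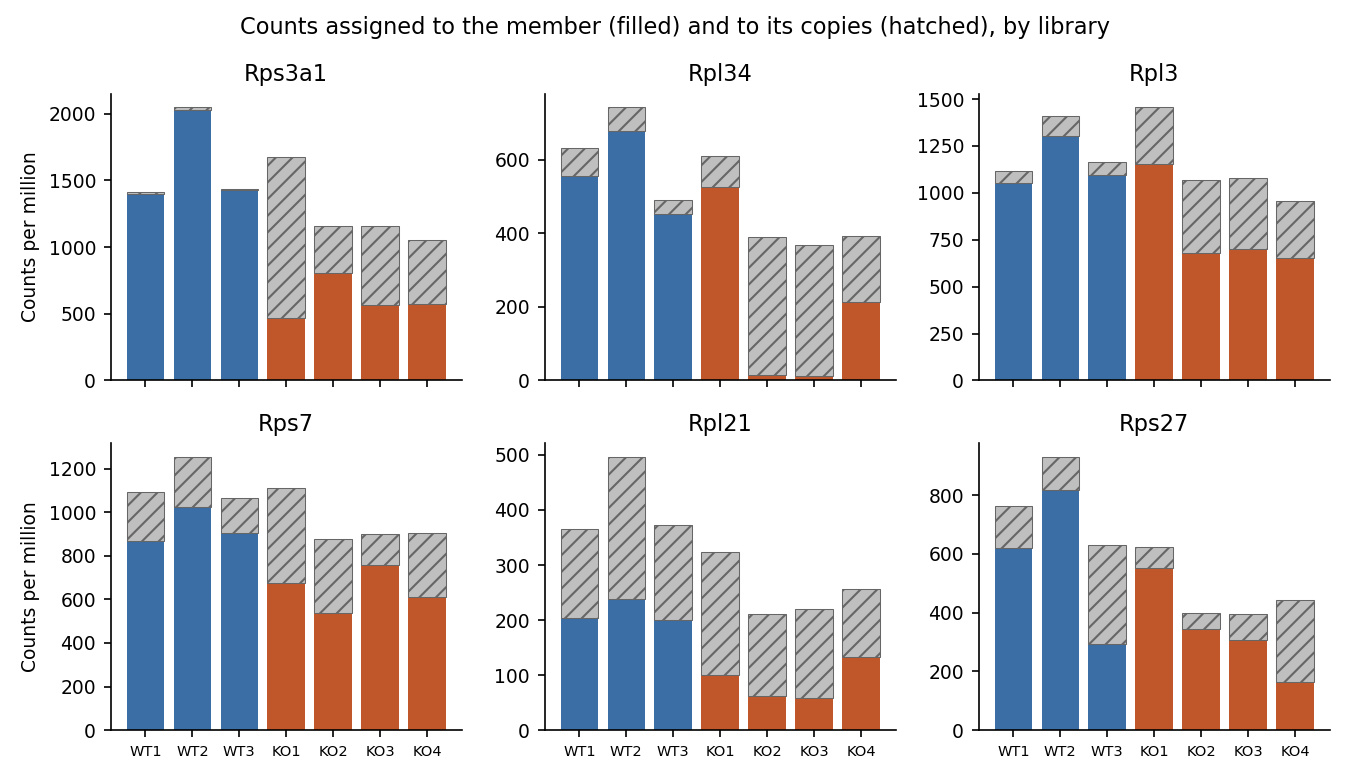
CPM assigned to each of 6 members (filled, WT blue, knockout orange) and to its copies (grey, hatched), stacked by library; for Rps27 the hatched bar is Rps27rt. For Rps3a1 the hatched part is visible in the knockout libraries and nearly absent in WT, and for Rpl34 it makes up most of the bar in knockout replicates 2 and 3.

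Summing the copies into their members was an alternative added after the data were seen. It left 82 members tested, of which 3 were called, all lower: Rpl29, Rpl21 and Rps27. The background with the copies summed was 15.9% of 15595 genes called, 7% lower and 8.87% higher. The median stayed at -0.18. Of the 82, 6 moved by more than 0.2 on the log2 scale, namely Rpl29, Rps3a1, Rpl34, Rpl21, Rpl3 and Rps7, all of them towards 0, and the median move was 0.0042. Of the 4 members called as deposited, Rps3a1 and Rps7 thus did not pass once their copies were added. Whether the counts in copies came from the copies or from the parent messages was not tested, and the way reads with several matches were counted is not given in the sources used here.

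**Figure D4:**
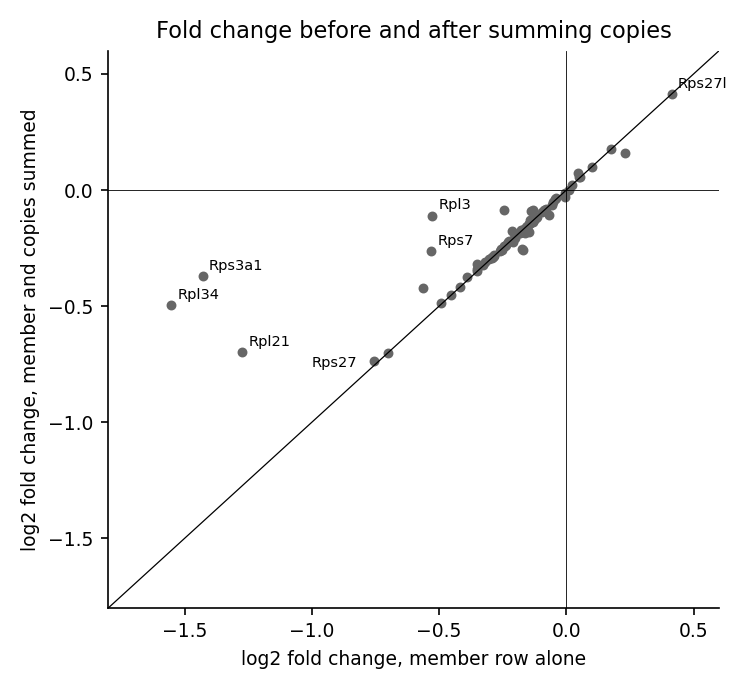
Log2 fold change of each member row alone (horizontal) and with its copies summed (vertical), for members other than Rpl29; the line marks equal values. Most points lie on the line, while Rps3a1, Rpl34, Rpl21, Rpl3 and Rps7 lie above it, closer to 0.

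Other members also varied between libraries of the same group. Rps27a, which encodes ubiquitin fused to a small subunit protein, had 6929, 10457 and 10837 counts in WT and 12949, 3611, 9083 and 3542 counts in knockout. Knockout replicates 2 and 4 were low and replicate 1 was the highest of all, and copies held at most 12.8% of the sum. Rpl17 had a 4.33-fold range alone and a 1.73-fold range with its copies. Of the 77 main genes, 16 (20.8%) differed by more than 2-fold between the highest and lowest library, and 13 did so after summing. Among the 537 genes of at least 296 CPM, 18.8% did. The number of main genes within a 1.5-fold range was 22 before and 27 after summing.

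Levels between genes are compared in the deposited FPKM, fragments scaled to gene length and library size. The median main gene stood at 306 FPKM, with quartiles of 205 and 525. The highest mean FPKM over the 7 libraries was that of Rplp1, at 2354, followed by Rplp0 at 1346, Rps15 at 1213, Rps3a1 at 1052 and Rpl4 at 925. This order differed between the groups after Rplp1. Rps3a1 was second in WT, at 1641 FPKM, and stood at 610 FPKM in knockout, below Rpl4 at 931 FPKM. These values leave out the copies of Rps3a1, which held 0.842% to 0.92% of its summed counts in WT and 30.6% to 72.2% in knockout. Rps15 was above Rplp0 in WT, at 1355 against 1316 FPKM, and below it in knockout, at 1106 against 1368 FPKM. The lowest tested were Rpl3l at 0.368, Rpl36a-ps1 at 1.16, Rpl36al at 1.71, Rpl24 at 3.71 and Rpl10-ps3 at 3.75. Rpl24 and Rps10, at 4.08 FPKM, are main genes that stood far below the others. For Rps10 the copies held between 96.2% and 97% of the summed counts in every library, in WT and knockout alike. Rpl24 stayed low with its copies added, at 10.1 ± 2.62 CPM in WT (n = 3) and 8.50 ± 1.65 CPM in knockout (n = 4). The 5 members left out by the filter had few counts or none. Rpl10l, Rpl13a-ps1 and Rpl36-ps4 were at 0 in all libraries, Rpl9-ps1 had at most 1 count, and Rpl39l at most 10, in knockout replicate 4.

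The stalk proteins Rplp0, Rplp1 and Rplp2, which recruit elongation factors to the large subunit, did not pass. Rplp0 was at 2141, 2511 and 1963 CPM in WT and 2572, 2112, 2183 and 2298 CPM in knockout, with overlapping groups and a fold change of 0.06 (95% interval -0.25 to 0.36). Rplp1 had -0.04 (-0.63 to 0.54) and Rplp2 -0.29 (-0.74 to 0.17). Of the proteins of the 5S RNP, the complex with 5S ribosomal RNA that binds MDM2 and so ties ribosome assembly to p53, Rpl5 had a fold change of -0.07 (-0.37 to 0.23) and Rpl11 -0.14 (-0.51 to 0.24). Both had their highest knockout value in replicate 1.

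Of 17 genes whose human orthologues are mutated in Diamond-Blackfan anaemia, a failure of red cell production, 1 was called lower (Rps7) and 16 did not pass, so 5.88% were called, against 15.5% of all genes. That count is for the rows as deposited. With the copies summed Rps7 did not pass (-0.26, edgeR adjusted p = 0.186), while Rps27 was called lower (-0.74, edgeR adjusted p = 0.0327). As deposited, all 17 fold changes were below 0, with a median of -0.21, beside 76 of 88 below 0 and a median of -0.18 over all tested members. Rps19, the most often mutated of them, was at 623, 891 and 679 CPM in WT and 756, 609, 559 and 476 CPM in knockout. The groups overlapped and the fold change was -0.29 (SE 0.18, edgeR adjusted p = 0.315). Among the others, Rps27 had -0.75 (SE 0.46), Rps24 had -0.42 (SE 0.19), Rps29 -0.35 (SE 0.18), Rpl35a -0.30 (SE 0.23) and Rps28 -0.28 (SE 0.24). Near 0 were Rps26 at -0.04 and Rpl5, while Rps10, Rpl18, Rpl26, Rpl27, Rpl35, Rpl15 and Rpl11 lay between -0.25 and -0.14.

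**Figure D5:**
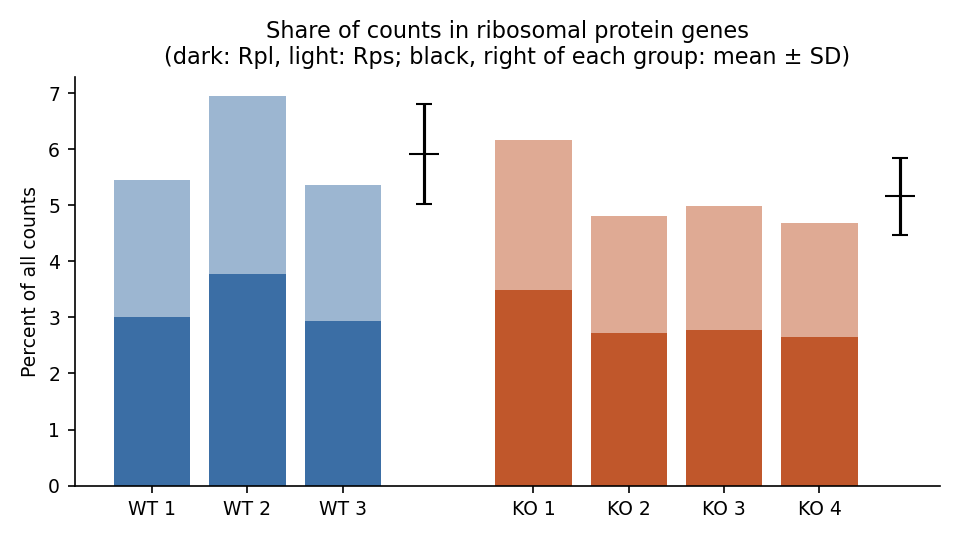
Percent of all counts that fell on the members in each library, split into large subunit (dark) and small subunit (light) genes, with the mean and SD of each group in black. WT replicate 2 at 6.94% and knockout replicate 1 at 6.16% stand above the other libraries.

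The members took 5.45%, 6.94% and 5.36% of all counts in the WT libraries and 6.16%, 4.80%, 4.99% and 4.68% in the knockout libraries. The means were 5.92 ± 0.888% (SD, n = 3) and 5.16 ± 0.68% (SD, n = 4), and the groups overlapped because knockout replicate 1 lay above WT replicates 1 and 3. With the copies added, the shares were 5.84%, 7.41% and 5.75% against 6.76%, 5.29%, 5.49% and 5.11%. The copies alone took 0.387% to 0.47% of counts in WT and 0.437% to 0.599% in knockout. Fau, at 931 ± 246 CPM in WT (n = 3) and 790 ± 115 CPM in knockout (n = 4), had a fold change of -0.24 (edgeR adjusted p = 0.421). Rack1, the small subunit scaffold, had -0.01 (edgeR adjusted p = 0.984).

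Paralogues were set against their main genes as the ratio of counts within each library. There were 7 pairs with both genes tested, with Rps4l, annotated as a transcribed processed pseudogene and so no member, standing in for the paralogue of Rps4x. The ratio of Rps27l, a p53 target in humans, to Rps27 was 8.94%, 6.74% and 13% in WT and 13.2%, 17.1%, 14.9% and 53% in knockout. The ratio of Rpl7l1 to Rpl7 was 8.24%, 7.17% and 7.83% against 8.69%, 11.2%, 9.53% and 9.48%. The ratio of Rps4l to Rps4x was 0.47%, 0.575% and 0.412% against 0.131%, 0.0439%, 0.218% and 0.224%. In these 3 pairs the groups did not overlap, with differences of 1.15, 0.33 and -1.89 on the log2 scale. Each had 0.0571, the smallest two-sided p of the exact permutation test as run, which doubled the smaller tail over the 35 splits into 3 and 4 libraries. After adjustment over the 7 pairs this was 0.133, and in this form of the test none could pass 0.05. The ratio to Rps27 also moves with the opposite levels of Rps27 and Rps27rt given above.

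The other pairs overlapped. Rpl22l1 stood at 11.6% to 20.5% of Rpl22 in WT and 9.89% to 18.6% in knockout, Rpl36al at 0.634% to 0.754% of Rpl36a against 0.711% to 0.993%, and Rpl3l, known from striated muscle, at 0.0465% to 0.104% of Rpl3 against 0.0307% to 0.114%. Their adjusted p-values by the exact permutation test were 0.867, 0.2 and 0.867. Rps27rt stood at 14% to 114% of Rps27 in WT and 13.1% to 170% in knockout (0.971 by the same test). Rps4l itself was called lower, from 6.26 ± 1.70 CPM (n = 3) to 1.87 ± 0.950 CPM (n = 4), a fold change of -1.74 (edgeR adjusted p = 0.032).

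Promoters from RefSeq (GRCm38.p6, 250 bases before to 50 bases after the start) were found for 65 of the 93 members. Many messages of the translation machinery begin with a C followed by a run of pyrimidines, the terminal oligopyrimidine (TOP) tract through which mTOR and LARP1 control their translation. A C with at least 4 more C or T, on the sense strand and with its first base exactly on the annotated start, was present in 21.5% of the members and 3.01% of all 27025 genes in the table. With its first base within 10 bases of the start it was present in 61.5% against 34.4%. CCGGAAG, a core of ETS factor sites, occurred anywhere in the 300 bases on either strand in 40% of members and 9.93% of all genes. TATAAA in the 50 bases before the start occurred in 1.54% against 3.15%. A match is a description of letters, not of a factor bound there. The 13 tested main genes with the tract exactly on the annotated start had a median fold change of -0.25 and the 44 without it there -0.17. As 61.5% of the members had it within 10 bases, this split depends on where the start was annotated. It does not sort the genes by having a TOP tract, and the difference was not tested. Below are 25 bases from 10 before the start of 3 genes with the tract on the start, with the tract in capitals, and of the called Rps3a1, which has none there.
Rps6, chr4:86857353-86857377, minus strand: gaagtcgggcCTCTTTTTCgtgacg
Rps15a, chr7:118116133-118116157, minus strand: tttctgccatCTTCCCTCgccggtg
Rps27, chr3:90213634-90213658, minus strand: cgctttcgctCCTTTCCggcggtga
Rps3a1, chr3:86142654-86142678, minus strand: gccggaagggcgaaagagcaagggt

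Other lists of protein synthesis genes had medians above 0, beside -0.18 for the members, though no difference between lists was tested. Of 77 tested genes of the mitochondrial ribosome, which translates the messages of mitochondrial DNA, 3 were called higher (Mrps34, Mrpl2 and Mrps2), none lower, and 7 were below 0, with a median of 0.14. Of 30 initiation factors and their regulators, Eif4ebp1, a repressor of cap-dependent initiation, rose by 0.58 and Eif4a2, a helicase, fell by 0.47, and 8 were below 0. Of 6 elongation factors Eif5a rose by 0.38, and Eef1a1 and Eef2, whose messages carry TOP tracts, had 0.09 and 0.15 without passing. Of 12 genes described as TOP messages or as their regulator, which again include Eef1a1 and Eef2, Vim rose by 0.58 and the median was 0.12. Of 64 factors of ribosome assembly, Noc4l rose by 0.57, Mdn1 fell by 0.55 and Tcof1 fell by 0.36, and the median was 0.05. Of 17 regulators of ribosomal protein synthesis Mycn was called higher, from 0.272 ± 0.167 CPM (n = 3) to 1.03 ± 0.323 CPM (n = 4), while Myc had a fold change of 0.07 and did not pass. The share called was 3.9% to 16.7% in these lists, against 15.5% over all genes.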

How the data were processed

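The authors deposited a table of read counts per gene and FPKM (fragments scaled to gene length and library size) for 7 RNA-seq libraries of total RNA prepared with the NEBNext Ultra kit, per the labels' protocols. GRCm38 (mm10) is the build in the submitters' processing notes; aligner and counter are not given in the sources used here. Counts were tested with edgeR 4.0.16 (filterByExpr, TMM, robust quasi-likelihood F-test, WT and knockout groups, no covariate, Benjamini-Hochberg over 15795 genes) in R 4.3.3; levels are TMM-scaled CPM. Copies came from BLAST+ 2.17.0 of GENCODE M21 transcripts (90% identity, 150 bases, 80% of the copy). The test was checked on simulated counts. It called 66 of 100 genes changed by 1 on the log2 scale, 94 of 100 changed by 2 and 12 of 15291 left unchanged. Smaller changes were not simulated. No pair of libraries agreed within sampling noise (chi-square per degree of freedom at least 21.7). Named genes were Rpl29, called members, the 5 highest and 5 lowest by FPKM, members the filter left out, paralogues, the role lists and, of other lists, up to 4 called per direction; Rpl3, Rpl17, Rpl34, Rps15a, Rps27a, Col6a4, Mst1, Myc, Eef1a1, Eef2 and all copies were named after their values were seen. Some genes are not reported here by name. Members and lists were chosen with earlier results of these data known. Alternatives were DESeq2 1.42.0, limma-voom 3.58.1, other scalings and filters, a replicate block, leaving out each library and summing copies.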

Additional observations from a re-analysis of the deposited data

Results flagged for a closer look

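In the 4 knockout libraries, a single library stood apart from the other 3 in several members by Dixon's criterion, applied to 44 named members, the shares and the paralogue ratios; chance alone flags about 1 in 20 such groups. Knockout replicate 1 was high in Rpl4 (2141 CPM against 1789 to 1827 in the others), Rps15 (832 CPM against 655 to 666), Rpl3 (1156 CPM against 653 to 701), Rps4x (1485 CPM against 1125 to 1147) and Rpl5 (1250 CPM against 953 to 972). The same library had the highest share of the members in protein-coding counts outside the mitochondrial genome, 6.54% against 5.08% to 5.26%. Knockout replicate 3 was low in Rpl7l1, a relative of Rpl7, at 93.1 CPM against 110 to 113 CPM. Knockout replicate 4 was high in Rps27rt, at 279 CPM against 54.6 to 89.1 CPM. In that library Rps27rt had 170% of the counts of Rps27 against 13.1% to 29.1%, and Rps27l had 53% against 13.2% to 17.1%.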

How the results depend on the processing

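Members called lower numbered 4 as reported, 4 with DESeq2, with its size factors, without TMM, with TMM on the other genes, with at least 10 counts in 3 libraries and with protein-coding genes alone, 3 without a filter or with copies summed, and 6 with limma-voom. With 1 library left out the count ran from 2 to 6, and without any of the 3 WT libraries it was 2, Rps3a1 and Rpl29. Over all genes 1079 were called lower and 1376 higher, against 1840 lower with limma-voom. With 1 library left out those counts ran from 411 to 1138 and from 639 to 1415. Rpl29 and Rps3a1 were called in every alternative on the deposited rows. Rpl21 was lost without a filter (adjusted p = 0.0836), and Rpl3 was called without knockout replicate 1 (-0.762, edgeR adjusted p = 0.00736).

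Replicate numbers did not pair the libraries: deviations of same-numbered libraries correlated at -0.0482, 0.0251 and 0.158. With the replicate block 5 members were called lower, Rps3a1, Rps28, Rpl29, Rps27rt and Rpl21, and Rps7 was at -0.516 (edgeR adjusted p = 0.0753). Over all genes 956 were called lower and 1163 higher in that fit. Only the knockout group has a replicate 4. The block thus fitted that library by a term of its own and compared it with no WT library, so these calls rest on the other libraries.

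Some fold changes that had not passed turned direction. Rpl36a-ps1, at 0.00257, was at -0.943 with limma-voom, -0.00452 with DESeq2's size factors, -0.0195 with protein-coding genes alone and -0.263 with the block. Rpl36al was at -0.0151 with limma-voom, Rpl4 at -0.00233 with protein-coding genes alone, and Rplp1 at 0.0346 with limma-voom and 0.132 with the block. With 1 library left out, Rpl36a-ps1 ran from -0.26 to 0.457, Rpl24 from -0.43 to 0.041, Rpl4 from -0.0459 to 0.0935 and Rplp0 from -0.0221 to 0.156. Rplp1 ran from -0.213 to 0.236, Rpl10 from -0.0743 to 0.131, Rps4x from -0.164 to 0.0196, Rplp2 from -0.442 to 0.0206 and Rpl11 from -0.259 to 0.0196. Rps26 ran from -0.141 to 0.036, Rpl18 from -0.279 to 0.0186 and Rpl17 from -0.726 to 0.143. The ratio of Rpl3l to Rpl3 ran from -0.582 to 0.0993, of Rpl22l1 to Rpl22 from -0.401 to 0.0528 and of Rps27rt to Rps27 from -0.874 to 0.82. The cause of these changes was not tested. The groups of 3 and 4 libraries limit the precision of each fold change, whose median standard error over the members was 0.173.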
